A study of Homo sapiens with 40 samples.

Results

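BT474 cells kept for 24 h in fresh serum-starvation medium with the water vehicle were compared with BT474 cells collected at the baseline, when the starvation that preceded every treatment ended. BT474 is a line from a breast ductal carcinoma with amplified HER2, and trastuzumab inhibits its growth. Both groups had been serum-starved in low-serum, phenol red-free medium, neither received a ligand, and the vehicle group was then kept in newly made medium of the same kind. The comparison therefore follows starved cells over time with no ligand, whereas the study set each ligand against the vehicle of the same time point. Each group held 2 of the 40 ATAC-seq libraries of the series. The other 36 libraries served as independent material: BT474 with vehicle at 1 and 12 h, BT474 with EGF or heregulin (HRG) at 1, 12 and 24 h, and the same scheme with a baseline in BT474R, a trastuzumab-resistant derivative that is 1 clone selected in the antibody.

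The peaks of the 4 lists on chromosomes 1 to 22 and X were merged where they overlapped by at least 1 bp, which gave 55411 regions. Of these, 43241 (78.0%) were open in all 4 lists, open meaning that the list held a peak there. Regions open in both 24 h lists and in neither baseline list, called gained below, numbered 1584. Regions with the reverse pattern, called lost, numbered 523, so that 2107 of 55411 regions made up the change in presence. Regions open in 1 list of each group (1542) served as a reference set, since they did not separate the groups. Their 24 h peaks were of similarly low rank (median 7.31), and their baseline peaks are not part of this value.

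ATAC-seq marks chromatin that a transposase can enter, chiefly promoters and enhancers freed of nucleosomes. In luminal breast cells, enhancers are held open by factors such as FOXA1, GATA3, TFAP2C, GRHL2 and steroid hormone receptors. Growth factor receptors of the HER family act through ERK and AKT on immediate early genes such as EGR1, FOS and JUN, whose products include the AP-1 proteins that bind TGAGTCA, while serum withdrawal is known to lower this signalling and to release FOXO factors.

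The following sequences are the 201 bases around the summit of 7 regions on which the results turn, read from the plus strand of hg38. They were chosen after their values were seen. The first 5 show some of the leading gained and lost regions. The last pair are the regions with the largest rise and fall of the highest peak among those open in all 4 lists. Capitals mark matches, on either strand, to the consensus sequences named with each.
Gained, near TMEM63B, capitals at an AGGTCA match, chr6:44076973-44077173: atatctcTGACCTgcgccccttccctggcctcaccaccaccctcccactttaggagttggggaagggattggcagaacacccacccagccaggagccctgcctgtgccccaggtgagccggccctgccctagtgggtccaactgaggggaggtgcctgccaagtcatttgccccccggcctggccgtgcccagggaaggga
Gained, promoter of SLC35F1, no match, chr6:117908025-117908225: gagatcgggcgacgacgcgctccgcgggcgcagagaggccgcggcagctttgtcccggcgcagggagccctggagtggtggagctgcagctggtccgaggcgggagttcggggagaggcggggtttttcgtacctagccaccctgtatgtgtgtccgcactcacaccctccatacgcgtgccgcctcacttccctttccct
Lost, far from TBL1XR1, capitals at an AGGTCA match, chr3:177615060-177615260: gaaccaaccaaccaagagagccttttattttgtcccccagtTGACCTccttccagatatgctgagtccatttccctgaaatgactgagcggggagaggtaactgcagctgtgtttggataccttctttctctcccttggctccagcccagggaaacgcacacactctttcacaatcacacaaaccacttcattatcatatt
Lost, near FOXI1, capitals at an AGGTCA match, chr5:170136239-170136439: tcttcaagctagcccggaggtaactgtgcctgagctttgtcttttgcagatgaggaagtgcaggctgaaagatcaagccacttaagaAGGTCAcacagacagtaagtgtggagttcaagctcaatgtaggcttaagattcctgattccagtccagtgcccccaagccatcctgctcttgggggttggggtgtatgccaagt
Lost, intron of MGLL, capitals at AP-1 and AGGTCA matches, chr3:127746898-127747098: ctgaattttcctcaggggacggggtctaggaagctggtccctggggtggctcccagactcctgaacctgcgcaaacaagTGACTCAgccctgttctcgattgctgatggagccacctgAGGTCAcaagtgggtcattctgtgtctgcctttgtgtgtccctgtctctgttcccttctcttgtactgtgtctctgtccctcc
Higher, promoter of MCIDAS, capitals at AGGTCA and GC box matches, chr5:55226567-55226767: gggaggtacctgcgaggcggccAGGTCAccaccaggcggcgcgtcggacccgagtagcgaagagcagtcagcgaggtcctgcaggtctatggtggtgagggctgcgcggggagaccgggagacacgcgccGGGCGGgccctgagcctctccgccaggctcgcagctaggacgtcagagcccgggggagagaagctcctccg
Lower, far from BCOR, capitals at GATA and AGGTCA matches, chrX:39619750-39619950: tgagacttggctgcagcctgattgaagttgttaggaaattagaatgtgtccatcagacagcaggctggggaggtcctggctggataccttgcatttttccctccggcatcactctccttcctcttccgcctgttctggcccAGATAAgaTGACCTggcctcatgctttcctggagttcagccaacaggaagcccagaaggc

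The 4 lists held 52331 and 50579 peaks at 24 h and 49997 and 47785 at the baseline, and peaks covered 33.9 and 33.6 Mb against 33.9 and 31.4 Mb. The mean difference of 2564 peaks had an exact two-sided permutation p of 0.33, the smallest that 2 against 2 libraries allow. Overlapping length as a share of joint length was 85.5% within the 24 h pair, 84.7% within the baseline pair and 82.9 to 84.5% between groups, so the groups were only slightly further apart than replicates. All 12 luminal epithelial markers, KRT8, EPCAM, FOXA1 and ERBB2 among them, had an open promoter in every list, and the sum of their rank percentiles was 1089 to 1111 per list. Of 14 markers of other cells, 5 were open at the baseline and 6 at 24 h, with sums of 373 to 381 in both groups, while KRT5, KRT14, COL1A2, PTPRC, CD3E, SPI1 and PECAM1 had no promoter peak in any list. Markers of other cells open in every list were TP63, VIM, ZEB1, TWIST1 and CDH5. VIM stood at rank percentiles of 87.75 to 91.35 and TWIST1 at 90.53 to 93.13, above the luminal marker CDH1 at 71.13 to 74.6. PDGFRB was the added marker, with rank percentiles of 19.8 and 18.0 at 24 h.

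The gained regions were 2.86% of all merged regions and the lost regions 0.944%. Both 24 h lists were also longer than both baseline lists, and the part of this in the excess of gains was not tested. When each list was limited to its 47785 highest-scoring peaks, the size of the shortest list, 918 regions were gained and 937 lost. On that basis 43.4% of the 1584 gained and 81.8% of the 523 lost regions kept their class. Lists of equal length tend to balance the counts by construction, so this setting cannot show where the excess came from. Leaving out a library relaxed the rule to 1 list in its group: gained regions then numbered 2710 without 24 h replicate 1, 3780 without 24 h replicate 2 and 3455 without baseline replicate 1, and lost regions 1314, 1029 and 891 without those libraries and 1661 without baseline replicate 2.

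Gained and lost regions were weak. A peak's score is the area of significance that the peak caller gave it, and its rank percentile is its place among all scores of its list, with the highest score at 100. The median of the mean rank percentile was 10.2 for gained and 9.48 for lost regions, beside 57.2 in the 24 h lists for regions open in all 4 lists. Median widths were 301, 340 and 634 bp. Only 13 gained and 3 lost regions had a score of 400 or more in both lists that held them, where the lowest score in any list was 200. On the near side of the rule, the lower of both rank percentiles had a median of 6.01 in gained and 5.58 in lost regions. On the far side, 2494 regions were open in both 24 h lists and 1 baseline list, with a median of 8.36 for the lone baseline peak, and 1288 were open in both baseline lists and 1 list at 24 h, with a median of 10.6 for the lone peak.

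Gained and lost regions lay mostly away from promoters, and lost regions more so. A promoter region is one within 1 kb of an annotated start site, coding or non-coding. Promoters made up 25.9% of gained, 15.3% of lost and 20.2% of reference regions, beside 36.8% of all regions. With equal numbers of peaks the shares were 28.2% of gained and 15.1% of lost regions. Introns outside promoters held 41.9% of gained and 53.9% of lost regions, and intergenic DNA 27.8% and 27.9%. Among 13352 protein-coding genes with a promoter region, 292 (2.19%) had a gained one and 29 (0.217%) a lost one.

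The highest-scoring gained region lay in an intron at chr6:44076289-44077445, 49.8 kb from the start of TMEM63B, which encodes an osmosensitive cation channel. Its rank percentiles were 77.4 and 65.9 at 24 h, with no peak at the baseline. In the libraries the rule did not use, it stood at 17.0 and 10.3 with vehicle at 1 h and at 56.2 and 57.6 at 12 h, so it climbed at each later time. It was open in all 8 BT474 libraries with EGF or HRG at 12 or 24 h, at rank percentiles between 69.2 and 88.5, and in all 20 BT474R libraries. Both groups of ligand libraries at 24 h, at 85.5 to 88.5, lay above both vehicle libraries of that time.

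Promoters were frequent among the other strong gains. SLC35F1, an orphan solute carrier, had a promoter region (chr6:117906858-117908220) at 56.1 and 60.5 at 24 h, and at 20.0 and 23.1 with vehicle at 1 h and 30.2 and 5.73 at 12 h. The promoter of IQSEC1, an exchange factor for the small GTPase ARF6 (chr3:12993625-12994486), stood at 57.0 and 56.2 at 24 h, after 6.40 and 17.7 at 1 h and 48.7 and 7.30 at 12 h. IQSEC1 was also 1 of the gained regions that opened in BT474R between the baseline and 24 h. NTM, a neural cell adhesion molecule, stood at 58.1 and 48.2, and KCNJ6, an inwardly rectifying potassium channel, at 46.6 and 42.9. CARD10, a scaffold of NF-kB activation, stood at 51.3 and 35.2.

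Gains away from protein-coding starts included a region 72.2 kb from VEGFA, the main angiogenic growth factor, at rank percentiles of 39.6 and 43.9. It rose over the vehicle course from 17.3 and 2.06 at 1 h to 34.5 and 43.2 at 12 h, and was open in 8 of 8 late ligand libraries and 19 of 20 BT474R libraries. A weaker gained region lay 32.2 kb from the same gene, at 4.83 and 7.73. A region 74.2 kb from LEP, the leptin gene (chr7:128166590-128167691), which lies at a non-coding start and so counts as a promoter region, stood at 47.1 and 56.2 at 24 h and at 45.4 and 5.97 at 12 h. Distances name the nearest protein-coding start and not a target.

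No gene gathered many gains. The genes with the most gained regions within 100 kb were HMGB1P1, PTPN1, GALNT9, CFTR and KIAA0040, with 3 each, and 8 genes reached that number. PTPN1 encodes a phosphatase of the insulin receptor, and its 3 gained regions stood at 1.67 to 25.5. CFTR encodes the chloride channel mutated in cystic fibrosis, and its regions stood at 5.06 to 17.7. The strongest of these was 37.9 kb from HMGB1P1, at 40.6 and 42.7, and had also been open at 1 h (29.0 and 27.7) and at 12 h (3.22 and 10.4), so for this region the baseline lists stood apart rather than the 24 h lists.

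The leading lost regions stood lower than the leading gains, and none lay at a protein-coding promoter. The highest was 82.3 kb from MYC, the proliferation-linked transcription factor, on chromosome 8. It stood at 47.5 and 44.8 at the baseline, at 38.8 and 39.3 with vehicle at 1 h and at 24.3 and 28.4 at 12 h, and had no peak at 24 h. That is a steady fall over the vehicle course. It was open in 4 of 8 late ligand libraries and in none of the 20 BT474R libraries.

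Several lost regions were open again, or still, in every late ligand library. The region 387 kb from TBL1XR1, a subunit of nuclear receptor corepressor complexes (chr3:177615010-177615419), stood at 45.5 and 40.0 at the baseline, at 9.40 and 4.43 with vehicle at 1 h, and at no peak at 12 and 24 h. With HRG it stood at 57.6 and 58.5 at 12 h and 63.7 and 65.0 at 24 h, and with EGF at 52.6 and 59.6 and then 60.8 and 55.1. The ligand libraries thus lay above both baseline lists, although at 1 h only 1 of 4 ligand libraries had a peak there, at 0.732.

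The region 30.4 kb from FOXI1, a forkhead factor (chr5:170135874-170136500), stood at 44.6 and 32.9 at the baseline, at 20.6 and 35.1 at 1 h, and at 8.71 in 1 of 2 vehicle libraries at 12 h. Late ligand libraries stood at 33.4 to 53.7. A region in an intron of MGLL, the monoacylglycerol lipase (chr3:127746571-127747291), fell from 36.8 and 40.1 to 18.5 and 30.3 at 1 h and 14.0 and 8.02 at 12 h. Its late ligand libraries stood at 38.3 to 64.4, above the 12 h vehicle libraries in every case. MPST, a sulfurtransferase with a lost region 8.70 kb away, stood at 45.6 and 33.8 and was likewise open in 8 of 8.

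An intronic region 9.63 kb from a start of ZNF385B, a zinc finger gene, behaved otherwise. It stood at 42.4 and 27.8 at the baseline and 23.2 and 36.6 with vehicle at 1 h, was at 2.34 in 1 vehicle library at 12 h, and had a peak in 0 of 8 late ligand libraries and 0 of 20 BT474R libraries. HDAC11, a histone deacetylase, had a lost region 32.6 kb away at 45.5 and 29.3. DOK5, an adaptor of receptor tyrosine kinases, had one 319 kb away at 28.4 and 44.1 that was still at 21.6 and 48.8 at 12 h.

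**Figure D1:**
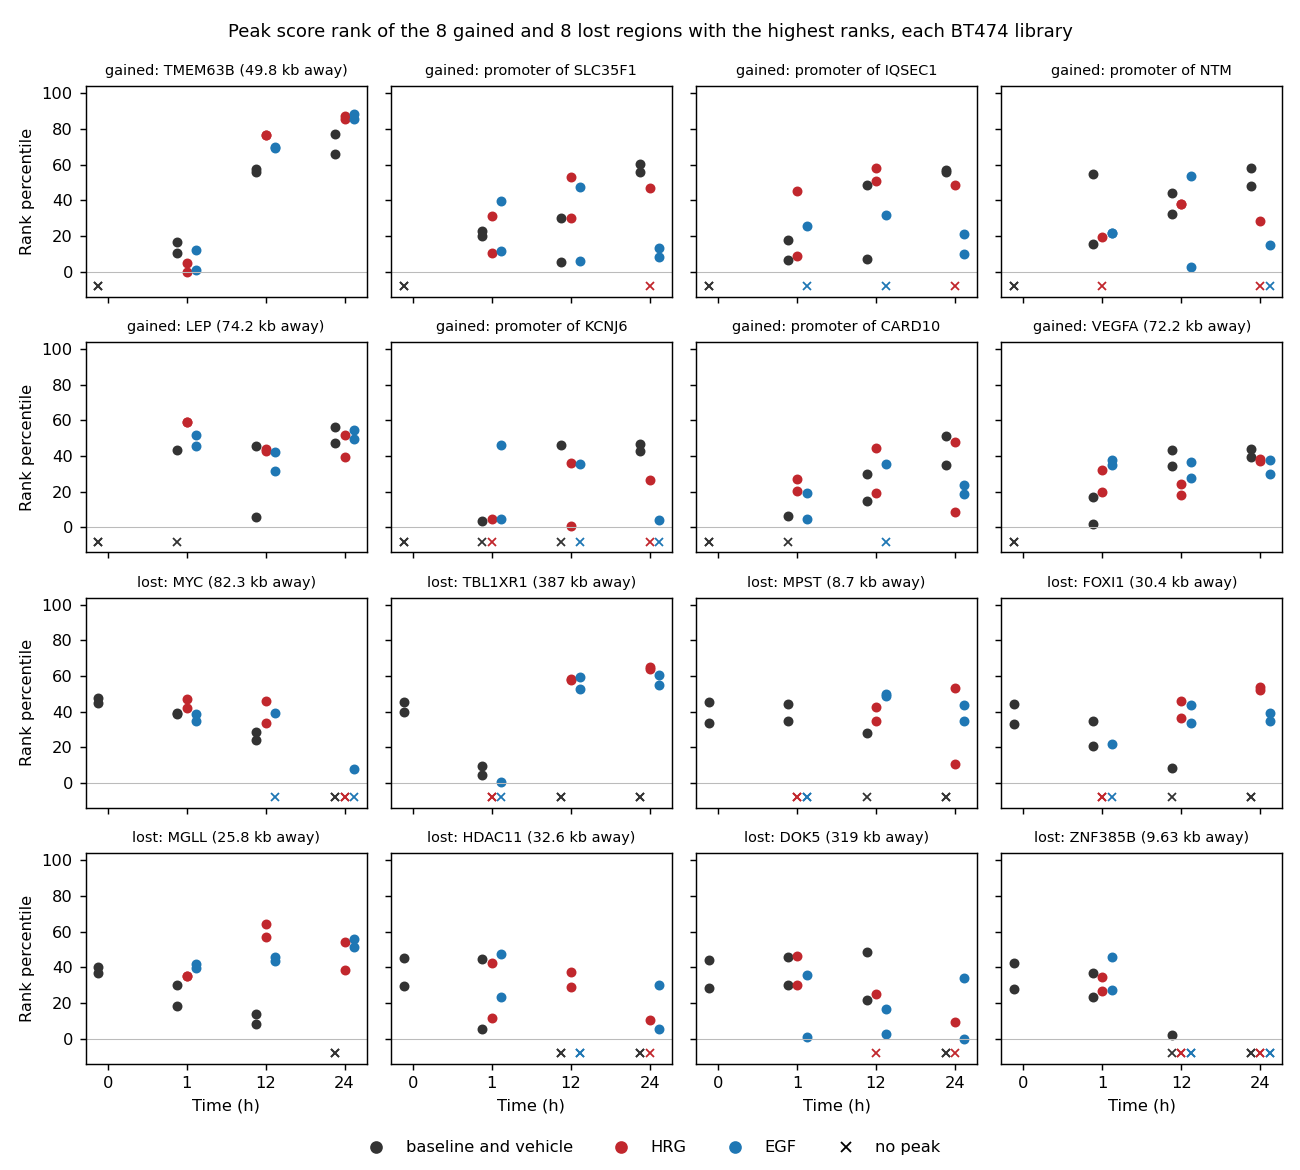
Rank percentile (0 to 100) of the 8 gained and 8 lost regions with the highest ranks in each BT474 library against time in h, with black points for baseline and vehicle, red for HRG, blue for EGF and crosses for libraries without a peak. The TMEM63B region climbed with time in every arm, and the TBL1XR1, FOXI1 and MGLL regions were absent at 24 h with vehicle but present in all late ligand libraries.

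Lost promoters were few. The 5 with the highest scores belonged to UGT1A6, a glucuronosyltransferase (23.0 and 28.1 at the baseline), HSD17B1, which converts estrone to estradiol (21.9 and 25.4), CCSER1 (22.3 and 18.2), SH3BP4, an endocytic adaptor (20.5 and 18.3), and GFUS, the GDP-fucose synthase (22.6 and 12.3). The UGT1A6, CCSER1 and SH3BP4 promoters were open in 8 of 8 late ligand libraries and in none of BT474R. SHROOM3, a regulator of apical constriction, had 3 lost regions within 100 kb, at 0.506 to 14.9, and MGLL, FRMPD4, MAP3K9 and TNS3 had 2 each.

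The BT474 vehicle libraries that the rule did not use moved the same way between 1 and 12 h. With vehicle, gained regions were open in 32.8 and 35.3% of cases at 1 h and in 50.3 and 48.2% at 12 h. Lost regions were open in 56.2 and 57.6% at 1 h and 33.8 and 37.3% at 12 h. The reference regions stayed at 44.2 and 41.3% and then 41.4 and 39.5%, so the gained and the lost values each separated the times while the reference values overlapped. The mean rise of gained regions was 15.2 percentage points and the mean change of lost regions -21.3. These became 9.85 without 24 h replicate 1 and 9.17 without 24 h replicate 2 for gained regions, and -12.2, -13.9 and -13.6 for lost regions without 24 h replicate 1, 24 h replicate 2 and baseline replicate 2.

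By the strict pattern, 174 of 1584 gained regions (11.0%) opened between 1 h and 12 h of vehicle in 2 of 2 against 0 of 2 libraries, beside 1.43% of all regions and 4.73% of reference regions. Of the lost regions, 70 of 523 (13.4%) closed in that interval, beside 1.18% of all regions and 6.74% of the reference set. In the other direction 45 gained regions closed and 8 lost regions opened. Of the gained regions 140 were open in all 4 vehicle libraries of 1 and 12 h and 359 in none, and of the lost regions 65 were open in all 4 and 94 in none.

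At the later times, lost regions were open more often with ligand than with vehicle. At 1 h the shares were 46.85 and 51.05% with HRG and 63.1 and 54.1% with EGF, beside 56.2 and 57.6% with vehicle. At 12 h they were open in 66.5 and 67.1% of cases with HRG and 64.2 and 81.1% with EGF, against the 33.8 and 37.3% with vehicle. At 24 h the shares were 56.6 and 62.3% with HRG and 63.9 and 69.0% with EGF, where the vehicle lists are 0% by the rule. Reference regions were also open more often in the ligand libraries, at 56.6 and 57.1% with HRG and 57.9 and 69.4% with EGF at 12 h, so the excess of lost over reference regions in these 4 libraries was smaller than the gap to vehicle. Between HRG and vehicle at 12 h, 130 lost regions (24.9%) were open in 2 of 2 against 0 of 2 libraries, beside 2.84% of all regions and 13.9% of reference regions. Between EGF and vehicle at 12 h they were 127 (24.3%), beside 2.76% and 14.3%, and both contrasts share the vehicle libraries. In all, 190 lost regions (36.3%) were open in 8 of 8 late ligand libraries, beside 18.1% of gained and 23.5% of reference regions.

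In the ligand arms gained and reference regions both rose between 1 and 24 h, the gained regions by more on average. Gained regions were open in 27.8 and 35.4% of cases at 1 h and 52.3 and 45.2% at 24 h of HRG, and in 47.7 and 32.4% and then 62.6 and 66.0% with EGF. Reference regions went from 33.1 and 43.4% to 53.1 and 49.8% with HRG and from 54.7 and 40.6% to 59.7 and 65.7% with EGF. Of the gained regions, 224 (14.1%) opened between 1 and 24 h of HRG and 311 (19.6%) between 1 and 24 h of EGF by the strict pattern, beside 13.1% and 14.6% of reference regions.

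**Figure D2:**
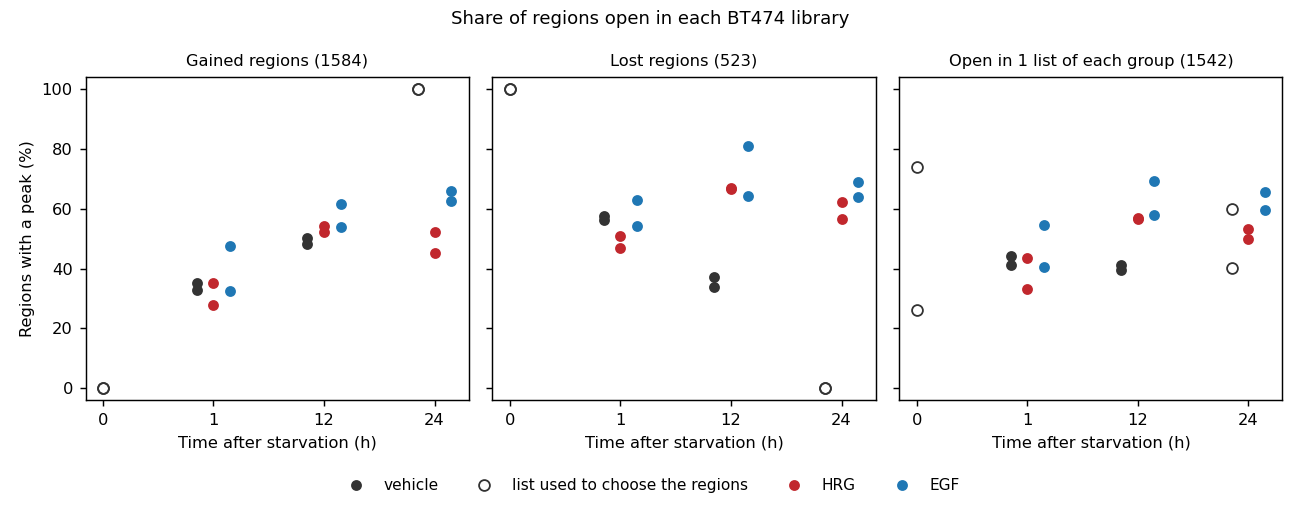
Percent of gained, lost and reference regions with a peak in each BT474 library against time in h, with black points for vehicle, red for HRG and blue for EGF, and open circles for the 4 lists that chose the regions. Between 1 and 12 h of vehicle the gained regions rose and the lost regions fell, and the lost regions were open in 56.6 to 81.1% of cases in the ligand libraries of 12 and 24 h.

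In BT474R few of these regions changed with them. By the same strict pattern, 9 gained regions (0.568%) opened between baseline and 24 h of vehicle in BT474R, beside 0.108% of all and 0.389% of reference regions. Of the lost regions 31 (5.93%) closed, beside 2.67% of all and 4.35% of reference regions. The reverse pattern was seen in 62 gained regions (3.91%, beside the same 2.67% and 4.35%) and in 1 lost region. The BT474R libraries at 12 and 24 h of vehicle were open at 52.6 to 69.8% of all regions, against 67.3 and 77.8% at their baseline, and the part of this in the counts was not tested. Gained regions shared with BT474R included those of IQSEC1, CIC, MYO5B and PHKA2, and lost ones those of ZNF609, MGAM, STEAP4 and FBXO33 and an intron of AHR, the aryl hydrocarbon receptor. The AHR intron region stood at 27.4 and 19.3 at the BT474 baseline and was open in 8 of 8 late ligand libraries.

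Consensus matches were counted in gained and lost regions and are given as shares, with no test. The AP-1 consensus TGAGTCA lay within 100 bp of the summit in 16.3% of lost and 5.68% of gained regions, beside 11.1% of reference regions and 9.97% of all regions. Outside promoters the shares were 16.0%, 6.81%, 12.6% and 12.9%. The hexamer AGGTCA, which many nuclear receptors bind, was in 19.2% of lost and 10.6% of gained regions outside promoters, beside 13.3% of all. The element AGATAA, which factors such as GATA3 bind, was in 16.0% and 9.71%, beside 11.4%, and the RUNX element TGTGGTT in 7.22% and 4.68%, beside 4.75%. With equal numbers of peaks, AP-1 matches were in 17.5% of lost and 5.88% of gained regions, AGGTCA in 18.2% and 9.48%, GATA in 14.0% and 9.69%, and CTCF in 1.60% and 5.12%.

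The insulator factor CTCF went the other way. Its consensus was in 0.903% of lost regions outside promoters, against 6.13% of gained regions, 5.04% of reference regions and 5.01% of all. The palindromic steroid receptor element ACANNNTGT, with any base at N, was in 10.5% of gained and 6.55% of lost regions outside promoters, beside 7.63% of all, and the forkhead element TGTTTAC in 12.5% and 10.2%, beside 10.8%. A match describes the letters in the window and is not evidence of binding. Several of the printed regions carry such matches: the lost MGLL region holds both AP-1 and AGGTCA, and the lost TBL1XR1 and FOXI1 regions AGGTCA alone. The gained TMEM63B region holds AGGTCA too, and the lost MPST region, which is not printed, holds only a GC box. The printed regions therefore do not reflect the shares of their classes.

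**Figure D3:**
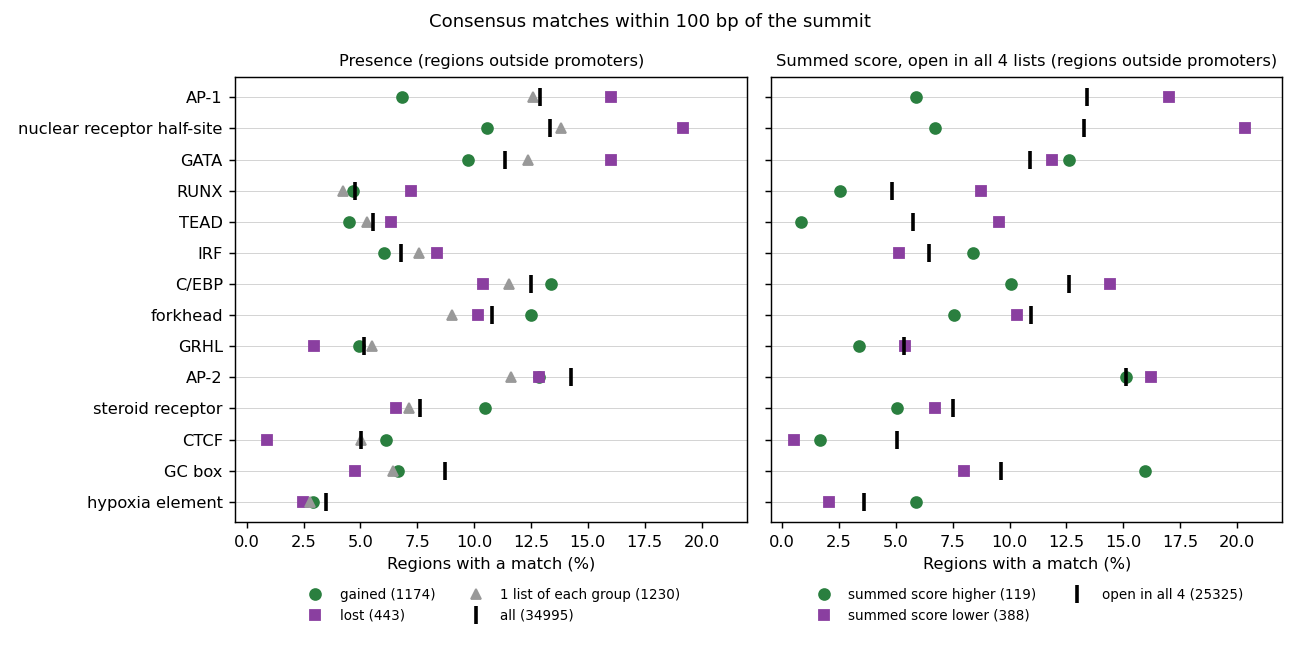
Percent of regions outside promoters with a consensus match within 100 bp of the summit, for gained, lost, reference and all regions on the left and for regions with a higher or lower summed score on the right, with the number of regions in brackets. AP-1 and the nuclear receptor hexamer AGGTCA were at 16.0 and 19.2% in lost and 6.81 and 10.6% in gained regions, and CTCF was at 0.903% in lost regions.

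Regions open in all 4 lists were compared by score with limma, on log2 values quantile-normalised over the 4 lists, at an adjusted p of 0.05. On the highest peak of each region, 65 of 43241 regions (0.15%) were called higher at 24 h and 48 (0.111%) lower, and 6821 had an unadjusted p below 0.05. These calls moved with how the peak caller had divided a region. Of the 65 higher regions, 58 held fewer peaks at 24 h than at the baseline, and of the 48 lower regions 29 held more, while 41420 of the 43241 regions held equal numbers. A region split into several peaks has a lower highest peak, whatever its total. Without baseline replicate 1 the counts were 189 higher and 23 lower, higher regions were 38 without 24 h replicate 1 and 42 without baseline replicate 2, and lower regions were 80 without 24 h replicate 2.

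The sum of scores over the peaks of a region was less tied to such splits, though not free of them. By the summed score, 363 regions (0.839%) were higher and 500 (1.16%) lower at 24 h, with 7945 at an unadjusted p below 0.05. Of these, 270 higher and 445 lower regions had 1 peak in every list, as did 41013 of all 43241, so other peak numbers were more frequent among the calls than over all regions. A fit on the regions with exactly 1 peak in each list gave 380 higher (0.927%) and 540 lower (1.32%). Calls on the highest peak and on the sum shared 19 higher and 24 lower regions. The summed calls depended on 24 h replicate 1: without it 12 regions were higher and 58 lower. They numbered 195 higher without 24 h replicate 2, 110 higher and 80 lower without baseline replicate 2, and 120 lower without baseline replicate 1. In each of these fits 1 group is a single library, which is assumed to vary like the pair it is set against. Of the 363 and 500, 11 higher and 31 lower regions were called in all of them.

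**Figure D4:**
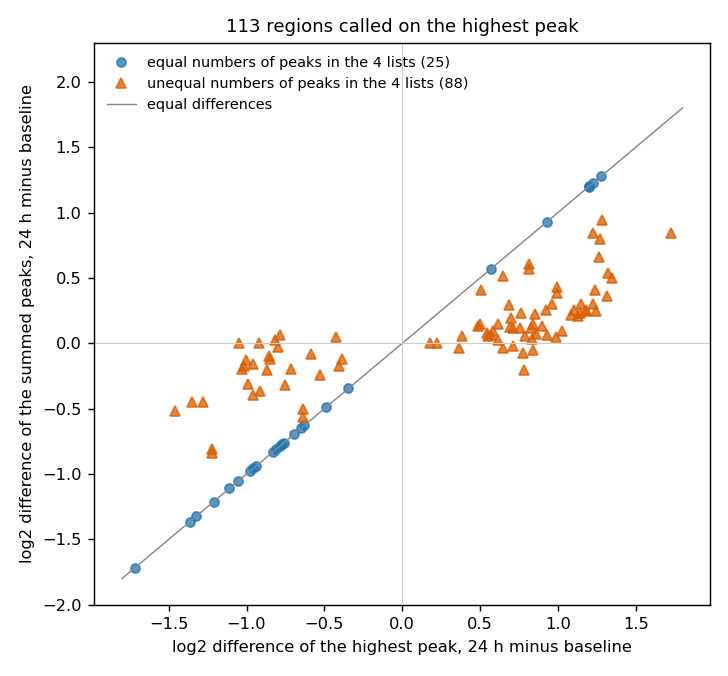
Log2 difference of the summed peaks against that of the highest peak, 24 h minus baseline, for the 113 regions called on the highest peak. Blue points had equal peak numbers in the 4 lists and lie on the line of equal differences, and orange triangles had unequal numbers and mostly lie closer to 0 on the summed score.

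By the summed score, higher regions lay mostly at promoters and lower regions mostly elsewhere. Promoter regions were 67.2% of the higher and 22.4% of the lower regions, beside 41.4% of all regions open in all 4 lists. The shift was broad and small: the median log2 difference was 0.03 over 17916 promoter regions, of which 59.7% were positive, and -0.03 over 25325 other regions, of which 43.3% were positive. In BT474R the medians of the same contrast were 0.07 and -0.07. Between 1 and 12 h of BT474 vehicle they were 0.01 and 0.02, so the separation by place was not seen there.

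Regions called on the summed score moved the same way in libraries that played no part in the call. Of 352 higher regions open at 1 and 12 h of vehicle, 75.9% were higher at 12 h than at 1 h, beside 53.8% of all regions. Of 489 lower regions, 85.3% were lower at 12 h, beside 46.2% of all. In BT474R the shares between baseline and 24 h were 75.5% of 241 and 78.9% of 360, beside 52.3% and 47.7% of all regions. By place, 69.0% of promoter regions rose and 62.1% of other regions fell in BT474R, and the part of place in these shares was not tested. AP-1 matches were in 17.0% of lower regions outside promoters and 5.88% of higher ones, beside 13.4% of all those open in every list. AGGTCA was in 20.4% and 6.72%, TEAD (GGAATGT) in 9.54% and 0.840%, and CTCF in 0.515% and 1.68%, beside 13.3%, 5.73% and 5.06%. Lower and lost regions were alike in carrying more AP-1 and AGGTCA matches than the regions they are set beside. Both carried fewer CTCF matches, but so did the higher regions (1.68%, beside 5.06%).

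The largest fall was in an intergenic region 458 kb from BCOR, a corepressor gene (chrX:39619470-39620300). Its score was 237 and 229 at 24 h and 754 and 697 at the baseline, 1 peak in each list. The log2 difference was -1.72 ± 0.13 (SE, n = 2 against 2, limma adjusted p = 0.00554), and that between 12 and 1 h of vehicle was -0.98. A region in CLEC3A, a C-type lectin gene, 12.1 kb from its start, fell from 785 and 687 to 352 and 264 (-1.36, adjusted p = 0.012 by limma). A region 449 kb from KCNMB2, a potassium channel subunit gene, fell from 771 and 827 to 378 and 310 (-1.32). In each the groups did not overlap, and the BCOR, CLEC3A and KCNMB2 calls held without each library in turn.

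Other falls were called on both scores. MGLL, which had 2 lost regions, also had a lower region 5.11 kb from a start (2136 and 2315 against 3178 and 2951, -0.56), called in all 4 left-out fits. A region 148 kb from TP63, the basal lineage factor, stood at 1325 and 1207 against 1847 and 1797 (-0.63) and carried AP-1 and AGGTCA matches. ACTN4, an actin crosslinker, had a lower intronic region at 347 and 363 against 717 and 657 (-1.05). In MSI2, an RNA-binding protein gene, an intronic region stood at 932 and 728 against 1208 and 1014. The difference was -0.52 on the sum and -1.46 on the highest peak, since it was 1 peak at the baseline and 2 at 24 h, and the summed call was made in none of the 4 left-out fits. An intronic region of ACACA, the rate-limiting enzyme of fatty acid synthesis, likewise differed by -0.45 on the sum and -1.28 on the highest peak. The other regions among the 8 largest falls of the highest peak, near TMBIM1, CTNND2 and TLE1, were not called on the sum (adjusted p = 0.14, 0.10 and 0.071 by limma).

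The largest rise on the highest peak was at the promoter of MCIDAS, a driver of multiciliated cell fate (chr5:55226484-55227724). Its summed score was 1131 and 1104 at 24 h against 695 and 490, a log2 difference of 0.84 ± 0.13 (SE), while the highest peak gave 1.73 because the baseline lists held 2 peaks there and the 24 h lists 1. C2orf72 rose from 209 and 202 to 527 and 513 with 1 peak in each list (1.28 on both scores, adjusted p = 0.012 on the sum by limma). VEGFB, a vascular growth factor, rose from 1150 and 1077 to 1709 and 1659 (0.50 on the sum, 1.35 on the highest peak). The promoter shared by MAD2L2 and DRAXIN rose from 707 and 679 to 1147 and 1003 (0.54 on the sum, 1.32 on the highest peak) and was called on the sum in 1 of 4 left-out fits, MCIDAS, C2orf72 and VEGFB in 3. CEBPD, PABPC3, RASGRP1 and SKOR1, the rest of the 8 largest rises of the highest peak, were not called on the sum, with limma adjusted p of 0.16, 0.051, 0.10 and 0.34.

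The largest summed rise was 47.0 kb from NR5A2, a nuclear receptor gene, in an intron (789 and 697 against 335 and 201, 1.47), and was called in 3 of 4 left-out fits. Rises that were called on both scores included GALNT16, a glycosyltransferase (772 and 767 against 358 and 274, 1.20), CHST15, a sulfotransferase (984 and 829 against 398 and 337, 1.20), PXDN, a peroxidase of basement membranes (1054 and 912 against 517 and 445, 0.93), FJX1 (1874 and 1795 against 1173 and 1128, 0.57) and ZFP36L1, an mRNA decay factor (13000 and 13040 against 11550 and 10980, 0.13). GALNT16, CHST15 and ZFP36L1 held without each library. Between 1 and 12 h of vehicle, the log2 differences were 0.24 for GALNT16, 0.24 for PXDN and -0.24 for FJX1.

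Gene lists were read at promoters on the summed score, where 1.73% of protein-coding genes with a promoter region open in all 4 lists had one called higher and 0.439% one called lower. Of the 17 gene lists, those of pathways held 13 genes with a promoter called higher and 3 with one called lower, and the marker lists added only CDH5, which was lower. On the highest peak, EGR1, SPRY2, EGFR, ERBB2 and SREBF1 were called higher and ALDOA, a glycolytic aldolase, and the marker CDH5 lower, beside 0.502% and 0.102% of genes. The quantile-normalised sum of the ERBB2 region differed by 0.00, against 0.18 on the highest peak. ALDOA was at 0.05 on the sum, against -0.43 on the highest peak, with 2 peaks in each 24 h list and 1 in each baseline list. SPRY2 was at 0.23 on the sum (limma adjusted p = 0.077).

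Among immediate early genes, which respond to growth factors within minutes, 2 of 26 had a promoter called higher and none lower, and the log2 differences of their 39 promoter regions had a median of 0.10 with 37 positive, beside 0.03 and 62.9% positive over protein-coding promoter regions. NR4A1, an orphan nuclear receptor, rose from 5709 and 5325 to 8721 and 8459 (0.56 ± 0.02 SE, limma adjusted p = 6.345e-05), was called without each library in turn, and was at 0.41 between 1 and 12 h. EGR1, a zinc finger factor, rose from 12920 and 12830 to 15080 and 14980 (0.15 ± 0.02, adjusted p = 0.021 by limma) and was at 0.35 between 1 and 12 h. The EGR1 region was 1 peak in each 24 h list and 2 in each baseline list. A region 3.62 kb from IER2 rose from 2376 and 2248 to 3070 and 3049. At NR4A1, EGR1 and the IER2 region the 24 h lists lay above both baseline lists. Within 100 kb of the immediate early genes, 3 of 127 regions open in all 4 lists were called higher and 1, near EGR3, lower.

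Of 16 ERK feedback genes, whose products restrain the pathway that induces them, DUSP2 (1235 and 1122 against 793 and 752, 0.51) and DUSP4 (7395 and 7193 against 6621 and 5959, 0.15) had higher promoters. DUSP6 had a lower region 18.2 kb away (472 and 448 against 843 and 685, -0.83). Among ERBB receptors and ligands, 2 of 11 genes had a higher promoter. EGFR rose from 2249 and 1551 to 2988 and 2742 (0.51 ± 0.11), and NRG2, a neuregulin that binds HER3 and HER4, rose at 2 promoter regions (0.97 and 0.47). A region covering a start of ERBB2 was lower by a small amount (20160 and 21360 against 22430 and 21340, -0.08), with overlapping groups before normalisation.

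Of 23 sterol and fatty acid synthesis genes with a promoter region open in all 4 lists 1 was called: SREBF1, which encodes a master regulator of lipid synthesis, rose from 1479 and 1580 to 2285 and 2081 (0.41 ± 0.08, adjusted p = 0.037 by limma). In the glycolysis and hypoxia list PDK1, a brake on pyruvate oxidation (0.22), and PFKFB3, an activator of glycolysis (0.56), had higher promoters, and PFKP, a phosphofructokinase, gained one at 22.3 and 1.57. Within 100 kb of that list's genes 7 of 140 regions were gained, among them both near VEGFA and others near ENO1, SLC2A1, HK1 and NDRG1, beside 1314 of 47054 regions of all genes. Gained regions reached 6 of its 21 genes, beside 7.99% of protein-coding genes, a share that also grows with the number of regions per gene.

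Among clock genes, BHLHE40, a transcriptional repressor (0.30), and RORA, a nuclear receptor (0.63), had higher promoters. RORA was at -0.87 between 1 and 12 h of vehicle, so the course was not steady. CDKN1A, the p21 inhibitor of cyclin-dependent kinases, was the only one of 27 cell cycle genes called (2341 and 2372 against 1931 and 1674, 0.28), and CXCR4, a chemokine receptor, the only one of 20 in the interferon and antigen processing list (1213 and 1182 against 851 and 671, 0.57). The EGR1, EGFR, SREBF1 and CXCR4 regions did not hold equal numbers of peaks in the 4 lists. The fit with 1 peak per list called higher promoters of 10 list genes, without NR4A1, EGR1, DUSP4, EGFR, SREBF1 and CXCR4. Of the promoters named so far, EGR1 was called in 3 of 4 left-out fits, DUSP4 in 2, BHLHE40, CXCR4, CDKN1A, EGFR, SREBF1 and the first NRG2 region in 1, and the other NRG2 region, DUSP2, PDK1, PFKFB3 and RORA in none.

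The lists for FOXO targets, amino acid response, autophagy and lysosome, adhesion and EMT, and NF-kB targets had no promoter called on the sum, and their promoter medians lay between 0.02 and 0.07. In limma's fit 2 FOXO target genes had a lower region nearby: KLF9, a glucocorticoid-responsive factor, 4.43 kb away (4153 and 4141 against 5350 and 4641, -0.34, called in all 4 left-out fits), and TXNIP, an inhibitor of glucose uptake, 5.12 kb away (-0.51, called in none). These were 2 of 121 regions near the list's genes, beside 396 of 37364, and 2 regions near them were gained and 2 lost, of 154.

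Luminal identity genes had several lower regions in their surroundings. KRT8, a luminal keratin, had a lower promoter (4133 and 4305 against 4958 and 4641, -0.27), as did RARA, a retinoic acid receptor in the estrogen and androgen list (-0.22). Within 100 kb of the 27 luminal identity genes, 8 of 175 regions open in all 4 lists were called lower and 1 higher, beside 396 and 332 of 37364 for all protein-coding genes. They belonged to CDH1, ELF3, FOXA1, KRT7, KRT8 and TFAP2C, so 6 of 27 genes had one, beside 2.29% of protein-coding genes for lower and 2.1% for higher. A share of genes also grows with the number of regions per gene, so the shares of regions are the closer comparison. The FOXA1 regions lay 11.5 kb (2296 and 2135 against 2699 and 2393, -0.30) and 6.81 kb away (3541 and 3603 against 4198 and 3832, -0.26). The TFAP2C regions lay 22.6 kb (-0.26) and 60.5 kb away (3501 and 3505 against 4250 and 3934, -0.31). In BT474R the same FOXA1 regions were at 0.03 and 0.05, and between 1 and 12 h of vehicle at 0.02 and 0.16, so these were not lower there. Of all 210 regions within 100 kb of these genes 3 were lost, near EPCAM, TFAP2A and KLF5, and 3 gained, near GRHL2, ELF5 and XBP1, beside 388 lost and 1314 gained of 47054 regions and 2.4% of protein-coding genes with a lost one. Of the calls, those at CDH1, KRT7, the 11.5 kb FOXA1 region and the 22.6 kb TFAP2C region were made in none of the 4 left-out fits, and the 60.5 kb TFAP2C region was called in each.

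Gained and lost regions near listed genes were scattered over the lists. IGF1R, the insulin-like growth factor receptor, had a gained region 1.56 kb from a start at 47.9 and 14.9 and a lost one 16.4 kb away at 11.4 and 9.37. Near FOXO1, a forkhead factor active when AKT signalling is low, a gained region 1.57 kb away stood at 16.4 and 33.8, and near XBP1, a stress response factor of luminal cells, one 1.76 kb away stood at 34.8 and 21.8. Gained regions also lay 4.79 kb from DUSP1 (8.94 and 28.9), 10.4 kb from JUND (6.34 and 36.6) and 74.6 kb from JUN (18.0 and 23.1), and the JUN region was open in all 4 vehicle libraries of 1 and 12 h. Lost regions lay 5.86 kb from CCND1, the cyclin D1 gene (8.58 and 4.48), 80.4 kb from CDK6, its kinase partner (20.4 and 22.2), 3.23 kb from BCL3, an NF-kB cofactor (15.7 and 22.7), and 8.03 kb from ITGB6, an epithelial integrin (17.6 and 15.1). Those at CCND1, CDK6 and BCL3 were closed in both vehicle libraries at 12 h.

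Among markers of other cells, the promoter of CDH5, an endothelial cadherin, was lower (640 and 579 against 1045 and 977, -0.83 ± 0.09, limma adjusted p = 0.012) and was called in all 4 left-out fits, while PECAM1, the other endothelial marker, had no promoter peak in any list. A region 52.2 kb from TP63 was lower too (-0.36). Since bulk chromatin is measured, fewer cells with an open region and less opening per cell cannot be told apart.

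**Figure D5:**
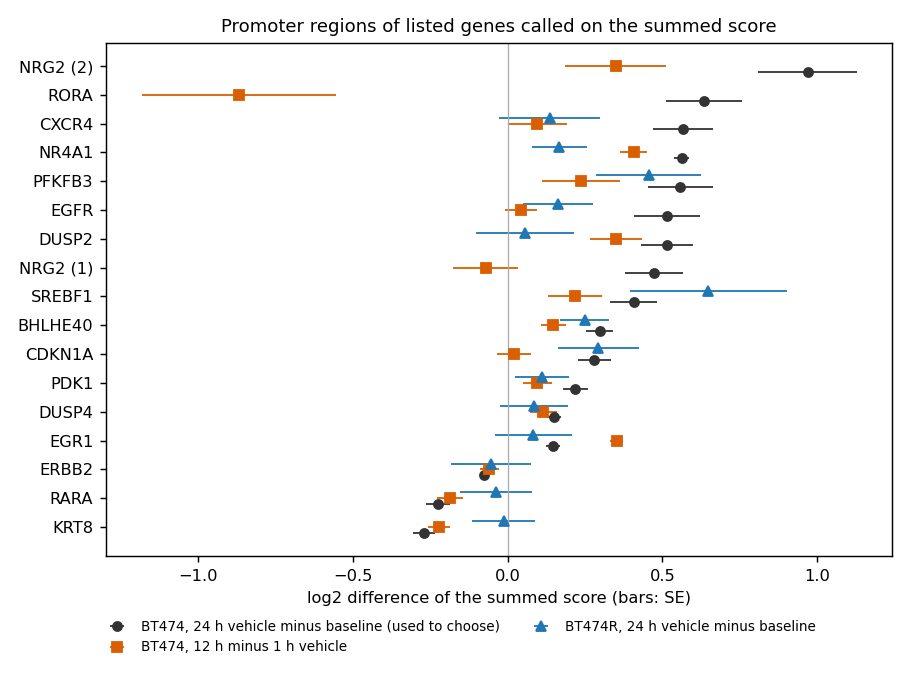
Log2 difference of the summed score with its SE for the 17 promoter regions of genes in the pathway lists called on that score, in BT474 at 24 h against baseline (black), between 12 and 1 h of BT474 vehicle (orange) and in BT474R at 24 h against baseline (blue, where the region was open in all its lists). NR4A1, EGR1, DUSP2, PFKFB3 and SREBF1 were above 0 in all 3, and RORA was below 0 between 1 and 12 h.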

How the data were processed

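ATAC-seq peak lists of 40 BT474 and BT474R libraries were used, 4 of them for the main comparison. The authors trimmed reads with Trim Galore (0.6.6), aligned them to GRCh38.p13 with BBMap, removed mitochondrial and blacklisted reads and called peaks in each library separately with Genrich. Its options are not stated in the labels or methods. The deposited score of each peak is the area of its significance, with a lowest value of 200 in the 4 lists. Neither read counts nor depths were used, so the depth is unknown and no counting interval can be given. Where the labels do not say that the 2 libraries of a group came from separate cultures, p-values measure only the spread between libraries.

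Peaks on chromosomes 1 to 22 and X were merged at an overlap of 1 bp and annotated with GENCODE release 44. Promoters lay within 1 kb of a start, and a region counted as near a gene when that gene had the closest protein-coding start and lay within 100 kb. Presence was described by counts. Scores of regions open in all 4 lists were log2-transformed, quantile-normalised and fitted with limma (3.58.1, R 4.3.3) with an empirical Bayes trend and Benjamini-Hochberg adjustment at 0.05, on the highest peak as the main fit and on the sum as an alternative. A set of 21 consensus sequences was searched on both strands in 201 bp around summits (Python 3.11.15, pysam 0.24.0). Those not spelled out in the results are ETS (CCGGAAG), AP-2 (GCCNNNGGC) and GC box (GGGCGG), CTCF being searched by name, and the hypoxia and E-box sequences overlap in their letters.

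Regions were named by rule: the 8 gained and 8 lost regions with the highest mean rank percentile, the 8 largest called differences each way, list genes with a called or changed promoter, and 5 each by number of regions per gene, by promoter and by the same change in BT474R. Regions called on the summed score, those called on both scores and those near list genes were named in addition, after their values were seen. The regions and gene lists were chosen with earlier results of these data known. Alternatives were equal numbers of peaks, stricter scores, overlaps and widths, other normalisations, a replicate block and leaving out each library. Some settings were chosen after seeing the data: restricting the fit to regions with 1 peak per list, and the other settings of the summed fit. A few items are not reported here.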

Additional observations from a re-analysis of the deposited data

Results flagged for a closer look

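By the strict pattern, 62 gained regions (3.91%) were open in both BT474R baseline libraries and in neither BT474R library at 24 h of vehicle. This is the opposite of BT474, but 4.35% of reference regions and 2.67% of all regions closed in BT474R as well. The 62 regions included those 213 kb from CFAP20DC, 124 kb from SNRK and 12.3 kb from NTRK3 and the promoter of CFAP65. One lost region went the opposite way in BT474R (1 of 523), 29.2 kb from ANKRD2, at rank percentiles of 19.6 and 14.1 at the BT474 baseline and 0.875 and 9.69 at 24 h in BT474R. The difference between the lines was not tested for these presence patterns, and BT474R is 1 clone.

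For regions open in all lists of both lines, a limma interaction term on the summed score was tested in 31207 regions. It called 4 regions at an adjusted p below 0.05, of which 3 are given here, and 2302 had an unadjusted p below 0.05. Near EDN2, 36.2 kb away, the log2 difference was -0.06 in BT474 and -1.74 in BT474R (limma adjusted p = 0.0285). At the ELF3 promoter it was -0.03 and -1.86 (limma adjusted p = 0.00165). At IRF2BP2 it was 0.21 and 2.68 (limma adjusted p = 0.0344).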

How the results depend on the processing

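With equal numbers of peaks per list, 918 regions were gained and 937 lost. The rise of gained regions between 1 and 12 h of vehicle, 15.2 percentage points with all peaks, was 18.4 with equal numbers and 17.9 when absence was required within 1 kb. The change of lost regions was -15.1 with equal numbers, -29.7 at scores of at least 400 and -13.7 with trimmed peaks, where AP-1 matches were in 13.3% of lost regions. The highest-peak fit gave 19 higher and 10 lower regions with a replicate block, 34 and 15 on normal scores, 363 and 500 on the sum and 380 and 540 with 1 peak per list, and 115 lower with the 1 and 12 h groups in the fit. List genes with a higher promoter were then 0 with the block, 1 on normal scores, 13 on the sum, 3 at scores of at least 400 and 10 with 1 peak per list, and those with a lower one 0 with the block and 3 on the sum. The summed fit gave 609 higher and 731 lower regions with the block and 557 and 618 with median centring. The difference in promoter share of peaks reversed to 0.378, the ERBB2 log2 difference to -0.0675 with median centring and that of ALDOA to 0.0477 on the sum, and the cause was not tested. Leaving out each library gave 2235 to 3780 gained and 891 to 1661 lost regions, shifts of 9.17 to 13.5 and -17.7 to -12.2 points, AP-1 shares of 6.35 to 7.96% and 13.9 to 17.5%, 38 to 189 higher and 23 to 80 lower regions on the highest peak, 2 to 12 and 0 to 1 list genes, and 12 to 289 higher and 58 to 352 lower on the sum. The replicate block leaves the 1584 gained and 523 lost regions as they are by construction. The replicate numbers are shared only as numbers: deviations of libraries with the same number correlated at -0.06. Depth is unknown, so weak peaks near the lowest score limit every presence call.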
